A study of Mus musculus with 6 samples.

Results

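RNA of mouse platelets was compared between mice given CTC41-EVs and mice given PBS, the vehicle control. The comparison uses 2 of the 6 Clariom D Mouse arrays of the study, the platelet array titled for CTC41-EVs and the platelet array titled for PBS, chosen by their titles. EVs commonly stands for extracellular vesicles, small membrane-bound packages of protein and RNA that cells shed. The remaining platelet array came from mice given CTC41.5G-EVs, and its values stand beside each result as a measure of how far single platelet arrays differ. The other 3 arrays held bone marrow cells named megakaryocyte progenitors, under the same 3 treatments. What CTC41 and CTC41.5G stand for, the dose, the route, the time, the mouse strain, sex and age and the number of mice per pool are not stated in the labels used here. By the labels' account, blood was drawn from the heart into citrate and the platelets of a group were pooled, so each group was 1 pool on 1 array. The protocol allows pools to be used directly or after magnetic beads removed leukocytes and red cells, without saying which of these applied to a given array. With 1 array on each side no difference has a replicate check. No p-value or standard error is therefore given, and every value below describes these arrays.

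Platelets are cell fragments without a nucleus that bone marrow megakaryocytes shed into the blood, where they seal injured vessels. They make almost no RNA of their own, and their transcripts are largely those packed by the megakaryocyte, which decay as the platelet circulates. They keep mitochondria, ribosomes and granules loaded with clotting and growth factors, and they can take up RNA and vesicles from plasma. In pooled platelets, fewer cells of a type and less RNA per cell cannot be told apart.

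Values are log2 signals as deposited, with no further scaling, so a difference of 1 is a doubling. Over all 72688 probes the median signal was 4.0 on the PBS array, 4.05 on the CTC41-EVs array and 4.02 on the CTC41.5G-EVs array. Of 30124 genes with a probe that names 1 gene, 8063 passed a floor of 5.08, the 75th percentile of all values on the 6 arrays, in their mean over the 3 platelet arrays. A gene can pass in this mean while single arrays lie under the floor, and the size of its difference is then measured on 1 side only. All 8 defining platelet markers passed it. Ppbp, the precursor of a platelet chemokine, stood at 12.10, 12.42 and 12.77 on the PBS, CTC41-EVs and CTC41.5G-EVs arrays, and Clec1b, the podoplanin receptor, at 10.76, 10.57 and 10.85. Of the B cell markers on the arrays, 0 of 3 passed the floor, and of the neutrophil markers 3 of 8 did. Among T and NK cell markers, Cd3d, Cd3e and Cd3g, chains of the T cell receptor complex, lay under the floor on every platelet array. Nkg7, the 1 that passed, stood at 7.36, 7.41 and 7.40. Monocyte and macrophage markers passed in 3 of 6, with Lyz2 at 9.94, 9.77 and 10.02. All 3 red cell markers passed, with Alas2 at 9.88, 9.82 and 9.85.

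Among all 8063 genes past the floor, 35 (0.434%) were at least 1.5-fold higher with CTC41-EVs, the fold named in the series description. Of the 137 microRNA genes past the floor, 4 reached this fold upwards in their microarray signals. They are shown first because Mir6994 had the largest difference upwards of all genes past the floor. The probes cover the gene of the precursor, so they do not tell how much of either mature strand was present. The mature sequences below are those of RefSeq on GRCm38.p6, written 5′ to 3′ with the seed, bases 2 to 8, in capitals.
mmu-miR-6994-5p: aCAAAGGUgggugaagccgguga
mmu-miR-6994-3p: aACGAUCUucuccgucuuugc
mmu-miR-1941-5p: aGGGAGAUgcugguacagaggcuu
mmu-miR-1941-3p: cAUCUUAGcaguaucucccau
mmu-miR-193b-5p: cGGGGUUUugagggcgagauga
mmu-miR-193b-3p: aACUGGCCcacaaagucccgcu
mmu-miR-129b-5p: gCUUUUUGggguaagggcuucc
mmu-miR-129b-3p: cAAGCCCAgaccgcaaaaagauu
No seed was shared among these 8 strands, so they form 8 groups of 1. In the table of mature sequences 1 other entry, mmu-miR-193a-3p, carries the seed of mmu-miR-193b-3p. The strands of Mir6994 lie on the plus strand at chr19:11923733-11923755 and chr19:11923778-11923798, and those of Mir193b on the plus strand at chr16:13449533-13449554 and chr16:13449570-13449591.

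Mir6994 stood at 5.16 on the PBS array, 6.48 on the CTC41-EVs array and 5.73 on the CTC41.5G-EVs array, a log2 difference of 1.31 between CTC41-EVs and PBS (2.48-fold). Mir1941 stood at 5.04, under the floor, and at 5.97 and 5.79 in the same order, a difference of 0.93. Mir193b, of a family known for targets in cell growth, stood at 6.14, 7.06 and 6.10, a difference of 0.92. The PBS and CTC41.5G-EVs arrays thus lay together for Mir193b, while both EV arrays lay above PBS for Mir1941. Mir129b, the fourth, stood at 4.75, 5.43 and 5.32, a difference of 0.68 from a PBS value under the floor, and its relatives Mir129-1 and Mir129-2 differed by 0.10 and 0.52. Mir684-1 and Mir684-2 went the other way, at 8.41, 7.77 and 7.79 and at 8.33, 7.68 and 7.72. Both EV arrays lay below PBS for this pair, by 0.60 to 0.65, and its sequences are not shown. Among all 590 microRNA genes, 137 passed the floor, of which 79 were higher and 58 lower with CTC41-EVs, with a median difference of 0.04. The lower share was thus 42.3%, against 61.3% of all genes. The Mir684 pair were the 2 at least 1.5-fold lower, beside 191 of all 8063 genes (2.37%). In progenitors Mir6994 stood at 8.95 with PBS and 9.27 with CTC41-EVs, and Mir193b at 7.50 and 7.23.

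Across all genes past the floor, few stood apart by 1.5-fold, and most of those were lower with CTC41-EVs. With CTC41-EVs 35 of 8063 genes (0.434%) were at least 1.5-fold higher than with PBS and 191 (2.37%) at least 1.5-fold lower. By sign alone 3120 genes (38.7%) were higher and 4943 (61.3%) lower, with a median difference of -0.06 and an SD over genes of 0.235. The array of CTC41.5G-EVs against the same PBS array gave 52 genes higher (0.645%) and 105 lower (1.3%), with an SD of 0.228, and these comparisons share the PBS array. Between the EV arrays the SD was 0.257, so the spread between CTC41-EVs and PBS lay between those of the other pairs. The CTC41-EVs array was the lowest of the 3 for 3829 genes (47.5%) and the highest for 2012 (25%). Of the genes past 1.5-fold, 15.5% were higher and 84.5% lower, and after cyclic loess normalization of the 3 platelet arrays, which evens out differences that depend on signal, 34.6% were higher and 65.4% lower. At 2-fold, 5 genes were higher and 10 lower.

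The difference went with the signal of the gene, in a curve rather than a line. Genes with a mean under 6 had a median difference of -0.02 (5098 genes), those from 8 to 9 a median of -0.26 (363 genes, 84.6% lower) and those from 9 to 10 a median of -0.28 (201 genes). Above that the median turned, to -0.09 from 10 to 11 (79 genes), 0.02 from 11 to 12 (27 genes) and 0.32 from 12 upwards (15 genes, 11 of them higher). On the CTC41.5G-EVs array the same top range had a median of 0.49 over PBS, while its range from 8 to 9 stood at 0.08. Because of this curve, most gene lists below are given with their median after cyclic loess as well. The part of signal in a group's difference was not tested.

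**Figure D1:**
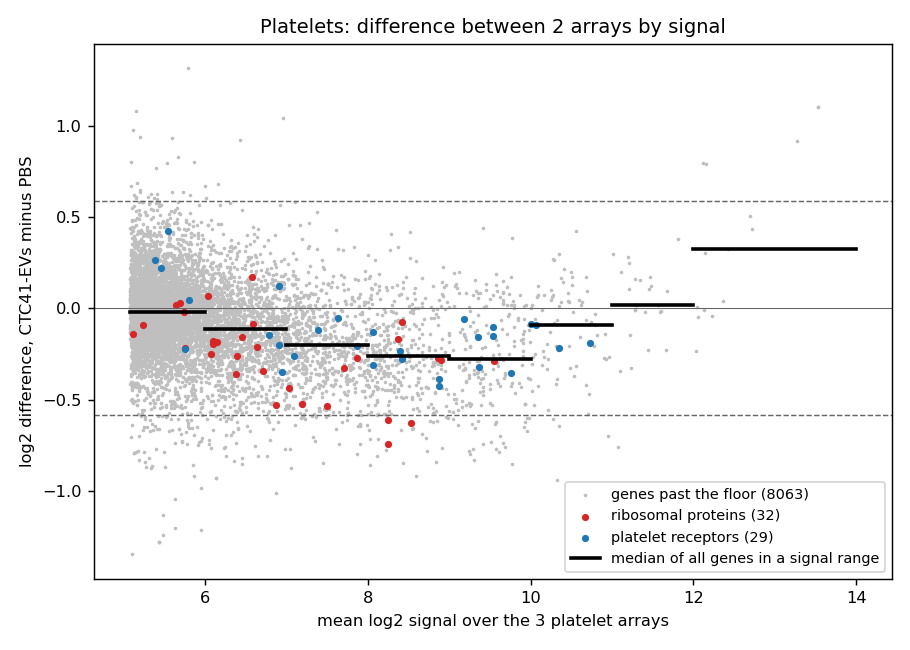
Log2 difference between the CTC41-EVs and PBS platelet arrays (vertical) against the mean log2 signal of the 3 platelet arrays (horizontal), 1 point per gene, for the 8063 genes past the floor; black bars give the median of all genes in a signal range and dashed lines 1.5-fold. The bars fall to -0.28 between 9 and 10 and reach 0.32 above 12, and most of the 32 ribosomal protein genes (red) and 29 platelet receptor genes (blue) lie below 0.

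The 15 sets of genes furthest down held 7 entries annotated as pseudogenes, 3 of the Astx family and 3 annotated as protein-coding. Gm22155, a small nuclear RNA gene, stood at 5.99 on the PBS array, 4.64 with CTC41-EVs and 4.67 with CTC41.5G-EVs, a difference of -1.35. Both EV arrays were thus lower, and under the floor, so that it passed through the PBS array alone. The Astx genes are X-linked copies named for amplified spermatogenic transcripts. Astx1a, Astx1b and Astx1c, which share 1 set of values, stood at 5.88 with PBS, 4.61 with CTC41-EVs and 5.81 with CTC41.5G-EVs (-1.28). Astx6 stood at 5.79, 4.55 and 6.10 (-1.24) and Astx3 at 5.95, 4.82 and 5.70 (-1.13). In this family the CTC41-EVs array alone was low, and under the floor, while PBS and CTC41.5G-EVs lay within 0.31 of each other.

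Bcl2a1a, an inhibitor of apoptosis of the BCL2 family, was the annotated protein-coding gene furthest down, at 6.62 with PBS, 5.41 with CTC41-EVs and 5.84 with CTC41.5G-EVs (-1.22, 2.32-fold). Its close relatives Bcl2a1c (3.25 and 2.85) and Bcl2a1d (3.98 and 3.66) lay under the floor on the PBS and CTC41-EVs arrays. Near-identical relatives may share probes. Lgals1, galectin-1, a secreted lectin, stood at 9.12, 8.20 and 8.45 (-0.92, 1.89-fold). The other galectins past the floor, Lgals3, Lgals7 and Lgals9, differed by 0.06, -0.17 and -0.21. Eif3m, a subunit of translation initiation factor eIF3, stood at 5.87, 4.99 and 5.16 (-0.87), with the CTC41-EVs value under the floor. For these 3 genes PBS was the high array and both EV arrays were low. The pseudogenes of the set were Gm6565 (-1.20), Gm6361 (-1.04), Gm14681 (-1.01), Gm14328 (-0.98), the pair Gm6740 and Gm6755 with shared values (-0.93), Gm10131 (-0.92) and Gm7426 (-0.87), and the remaining entry was mt-Tk, given below. Gm6565 and Gm6361 lay under the floor with CTC41-EVs.

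The 15 sets furthest up were mostly noncoding or weak signals, with some of the brightest RNAs of the arrays among them. Rn7s1 and Rn7s2, genes of 7SL RNA, the RNA of the signal recognition particle, share their values and stood at 12.85 with PBS, 13.95 with CTC41-EVs and 13.80 with CTC41.5G-EVs (1.10, 2.14-fold). Both EV arrays thus lay about a doubling above PBS. Rn7sk, the small nuclear RNA that holds back transcription elongation, stood at 11.54, 11.64 and 11.85, a difference of 0.09. Ctla2a, which encodes an inhibitor of cathepsin-like proteases, stood at 11.69, 12.48 and 12.18 (0.79, 1.73-fold), and its relative Ctla2b at 11.98, 12.29 and 12.16 (0.30). For both the PBS array was the lowest of the 3. Gm5526, a pseudogene with a high signal, stood at 11.59, 12.38 and 12.48 (0.79).

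Sftpc, surfactant protein C of lung alveolar cells, stood at 6.05 with PBS, 7.09 with CTC41-EVs and 7.72 with CTC41.5G-EVs (1.04, 2.06-fold). Scgb1a1, the secretoglobin of airway club cells, stood at 4.64, under the floor, and at 5.22 and 5.72 (0.58). The 4 lung markers, of which Sftpd did not pass the floor, were higher with CTC41-EVs by 0.18 to 1.04, and their summed signal was 7.25 with PBS, 7.96 with CTC41-EVs and 8.39 with CTC41.5G-EVs on the log2 scale. In the longer lung list 4 of 6 genes past the floor were higher and 2 lower, from Aqp5, a water channel, at -0.05 upwards, with a median of 0.20 and of 0.21 after cyclic loess. PBS was thus the low array for the summed markers, and the share of lung RNA in the other differences was not tested. A further entry was Bloc1s3, a subunit of the complex that builds platelet dense granules, at 5.15, 5.95 and 5.51 (0.79). Its list, granule biogenesis, leaned the other way, with 12 of 14 genes past the floor lower (85.7%, against 61.3% of all genes). That list had a median of -0.16, or -0.07 after cyclic loess. Another entry was Mphosph6, a cofactor of the RNA exosome, at 4.81, 5.61 and 4.85 (0.80), where the CTC41-EVs array alone lay above the floor. The rest were mt-Rnr1, given below, Mir6994, Mir1941 and Mir193b, Gm25564, a small nucleolar RNA gene (1.08), Gm11448 (0.98), 1600027J07Rik (0.94), Gm12496 (0.80) and the odorant receptor gene Olfr686 (0.83). Of these, Mir1941 (5.04), Gm25564 (4.80), Gm11448 (4.70) and 1600027J07Rik (4.47) lay under the floor with PBS. Gm25564 (4.77) and Gm11448 (4.99) also lay under it with CTC41.5G-EVs, so that they passed through the CTC41-EVs array alone.

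**Figure D2:**
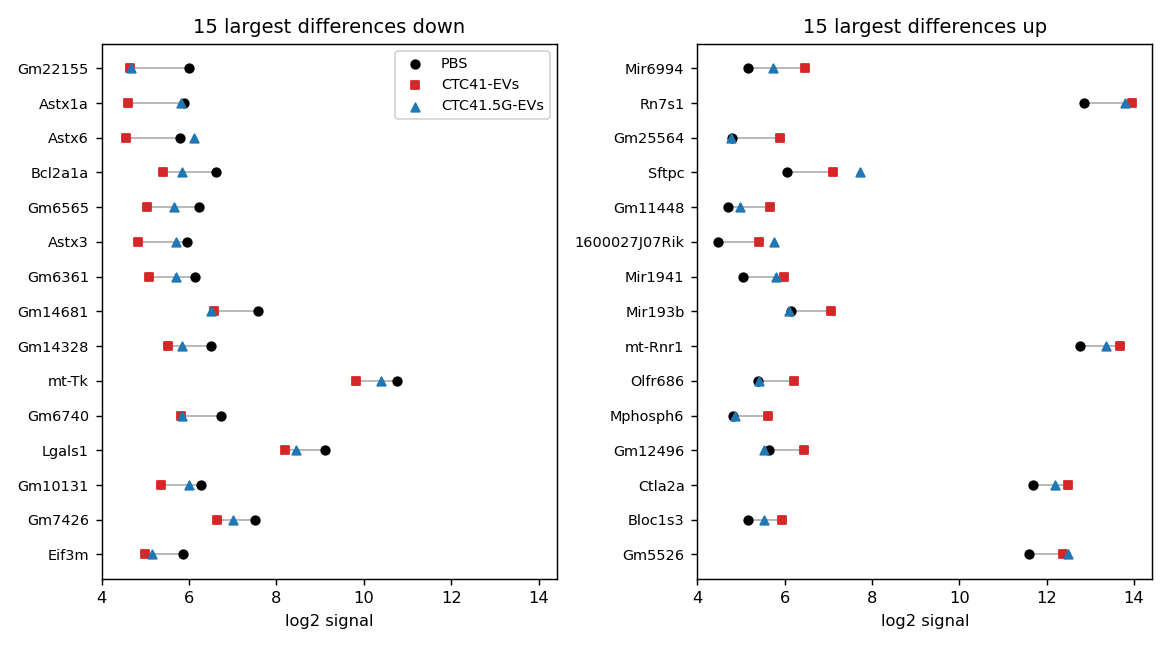
Log2 signal (horizontal) of the 15 genes or sets furthest down and the 15 furthest up between the CTC41-EVs and PBS platelet arrays, 1 row per gene, with 1 point for each of the 3 platelet arrays and a grey line from PBS to CTC41-EVs. Most rows lie between 4 and 8, Rn7s1, mt-Rnr1, Ctla2a and Gm5526 lie above 11, and for the Astx genes the CTC41.5G-EVs point lies with PBS.

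RNAs of the mitochondrial genome stood on both sides of PBS. This small circular genome is transcribed as long strands that are cut into ribosomal, transfer and messenger RNAs. Of 37 listed RNAs 7 had a probe that names 1 gene, and all 7 passed the floor. mt-Rnr1, the small ribosomal RNA, stood at 12.77 with PBS, 13.69 with CTC41-EVs and 13.35 with CTC41.5G-EVs (0.92, 1.89-fold), which reads -0.13 after quantile normalization of the platelet arrays. mt-Tk, the lysine transfer RNA, stood at 10.76, 9.82 and 10.40 (-0.94). COX2, a subunit of cytochrome c oxidase, stood at 9.24, 8.4 and 8.90 (-0.84). The CTC41-EVs array was thus the highest for the ribosomal RNA and the lowest for these others. ND3 and ND2, subunits of complex I, stood at 11.33, 10.57 and 11.34 (-0.76) and at 11.16, 10.46 and 11.24 (-0.70), so that for both the PBS and CTC41.5G-EVs arrays lay within 0.1 of each other. COX1, the core subunit of cytochrome c oxidase, differed by 0.04 and ND6, the complex I subunit on the other strand, by -0.00. COX2 and mt-Tk are neighbouring genes of the same strand.

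Respiratory chain genes of the nucleus were mostly lower with CTC41-EVs. Of 96 listed genes of oxidative phosphorylation, which makes ATP in mitochondria, 75 were on the arrays and 66 passed the floor, 57 lower and 9 higher (86.4% lower, against 61.3% of all genes). Their median difference was -0.20, or -0.15 after cyclic loess with 49 of 66 lower, while genes with a mean from 6 to 7 had a median of -0.11. By complex, 25 of 29 complex I genes were lower (median -0.17), 1 of 2 of complex II (-0.06), 8 of 9 of complex III and cytochrome c (-0.30), 10 of 11 of complex IV (-0.27) and 13 of 15 of ATP synthase and its inhibitor (-0.25). Uqcrb, a subunit of complex III, was the 1 member past 1.5-fold, at 7.13 with PBS, 6.33 with CTC41-EVs and 6.50 with CTC41.5G-EVs (-0.81). Uqcrh, of the same complex, stood at 7.96, 7.50 and 8.06 (-0.46), Cox7c of complex IV at 5.56, 5.16 and 5.66 (-0.40) and Ndufa2 of complex I at 9.30, 8.92 and 9.49 (-0.38). In these 3 the CTC41-EVs array was the lowest and the CTC41.5G-EVs array the highest. Cox6c, of complex IV, was the member furthest up, at 6.18, 6.52 and 6.23 (0.33). Against PBS the CTC41.5G-EVs array had a median of -0.00 over the 66 genes.

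Genes of the ribosome and of translation were among the groups furthest below PBS. Platelets inherit ribosomes from the megakaryocyte and translate with them, without new ribosomal RNA. Of 81 ribosomal protein genes 32 had a probe that names 1 gene, all past the floor, with 28 lower and 4 higher and a median difference of -0.23. After cyclic loess the median was -0.13, with 24 of 32 lower. As deposited the lower share was 87.5%, against 61.3% of all genes, and the members' median signal was 6.62. All genes with a mean from 6 to 7 had a median of -0.11, with 69.7% lower. The 3 members past 1.5-fold were Rpl4, at 8.64 with PBS, 7.89 with CTC41-EVs and 8.23 with CTC41.5G-EVs (-0.74), Rpl8, at 8.73, 8.11 and 8.76 (-0.63), and Rps3a1, at 8.49, 7.88 and 8.36 (-0.61). The CTC41-EVs array was the lowest for all 3. Of all 363 genes with a mean from 8 to 9, where these lay, 26 were at least 1.5-fold lower. Rps7 followed at 7.69, 7.15 and 7.65 (-0.54), while Rpl41, the shortest ribosomal protein, stood at 6.47, 6.64 and 6.63 (0.17). Both subunits showed the same, with 14 of 16 genes lower in the small subunit (median -0.23) and 14 of 16 in the large (-0.24). Ribosomal protein pseudogenes, copies whose probes cannot be assumed to tell them from their parent genes, were lower for 150 of 172 past the floor, 17 of them by at least 1.5-fold, with a median of -0.30 and of -0.17 after cyclic loess. This last list was added after the data were seen. Its members' median signal was 7.74. Of all 657 genes with a mean from 7 to 8, 531 (80.8%) were lower, 25 of them by at least 1.5-fold. Among all 8063 genes 191 (2.37%) were at least 1.5-fold lower.

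Of 46 listed translation factors 38 were on the arrays and 31 passed the floor, 28 lower and 3 higher, with a median of -0.25 and of -0.15 after cyclic loess. Of these, 7 of 8 subunits of eIF3, which brings the small ribosomal subunit to messenger RNA, were lower (median -0.26), the furthest being Eif3m. Npm1, a chaperone of ribosome assembly, stood at 6.85 with PBS, 6.38 with CTC41-EVs and 6.49 with CTC41.5G-EVs (-0.47). Eef1a1, which carries transfer RNAs to the ribosome, stood at 9.55, 9.20 and 9.57 (-0.36). Eif4ebp1, a repressor of cap-dependent initiation, was the member furthest up, at 7.51, 7.83 and 7.56 (0.32). So the CTC41-EVs array was low for Npm1 and Eef1a1 and high for Eif4ebp1. The members' median signal was 6.34, and all genes with a mean from 6 to 7 had a median of -0.11.

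The proteasome, splicing and protein folding lists leaned the same way. Of 29 proteasome genes past the floor 26 were lower, with a median of -0.19 and of -0.12 after cyclic loess. The 20S core, which cuts the protein chain, had 13 of 14 genes lower (median -0.25) and the caps that feed it 13 of 15 (-0.14). Psma6, of the core, stood at 6.75, 6.21 and 6.56 (-0.54), with CTC41-EVs the lowest array. Splicing factors were lower in 19 of 22 (median -0.22, -0.18 after cyclic loess), and genes of endoplasmic reticulum stress and disulfide isomerases in 16 of 17 (-0.20, and -0.16 after cyclic loess). Among these, Edem1, which sends misfolded proteins to degradation, stood at 9.27, 8.76 and 9.45 (-0.51). Heat shock genes were lower in 11 of 12 (-0.14, and -0.12 after cyclic loess), led by the co-chaperone gene Stip1 at 6.49, 5.90 and 6.01 (-0.59). After cyclic loess 24 of 29 proteasome, 18 of 22 splicing, 15 of 17 endoplasmic reticulum and 9 of 12 heat shock genes were lower.

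To describe promoters beyond the lists, the 250 bases before and 50 after each start were searched for a motif. It was CCGGAAGT or its reverse complement ACTTCCGG, the core bound by ETS factors such as GABP. The motif was in 6 of 27 ribosomal protein promoters (22.2%), 4 of 22 of translation factors (18.2%), 4 of 24 of proteasome genes (16.7%) and 4 of 56 of oxidative phosphorylation genes (7.14%). It was in 371 of 4651 promoters of genes past the floor (7.98%) and 1164 of all 27025 in the table (4.31%). Platelet receptor genes had it in 0 of 24 and genes at least 1.5-fold lower in 2 of 58 (3.45%). Windows of 30 bases from RefSeq on GRCm38.p6 follow for 3 lower genes and for Rps18, which differed by 0.02, with the motif in capitals. They are shown because a gene with the motif need not be lower. Rpl41, which differed by 0.17, also had the motif upstream of its start, and its window is not shown.
Rpsa: tcgccccagctACTTCCGGcctggggtctg
Rpl19: gacttagcgtgACTTCCGGctacccagagg
Rpl35: aggaaggcaggACTTCCGGgaagcggaggg
Rps18: agaagcaatttCCGGAAGTggacctccggg
These windows lie at chr9:120127566-120127595 on the plus strand, chr11:98026659-98026688 on the plus strand, chr2:39005241-39005270 on the minus strand and chr17:33955722-33955751 on the minus strand, each written on its gene's strand and upstream of an annotated start. Rpsa differed by -0.53, Rpl19 by -0.34 and Rpl35 by -0.33. A match is a description of these letters and not of binding.

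Platelet surface receptors were slightly lower, without a member past 1.5-fold. Of 35 listed, 31 were on the arrays and 29 passed the floor, 24 lower and 5 higher, with a median difference of -0.16, which was -0.02 after cyclic loess with 15 of 29 lower. Genes with a mean from 8 to 9 had a median of -0.26. Gp5, of the von Willebrand factor receptor, stood at 8.93 with PBS, 8.51 with CTC41-EVs and 9.20 with CTC41.5G-EVs (-0.42), and Itgb3, the beta chain of the fibrinogen receptor, at 9.75, 9.40 and 10.15 (-0.35). Its partner chain Itga2b stood at 9.47, 9.32 and 9.82 (-0.15). For these 3 the CTC41-EVs array was the lowest and CTC41.5G-EVs the highest. Gp6, the collagen receptor, differed by -0.09, P2ry12, the ADP receptor, by -0.22, and Cd47, which shields cells from phagocytosis, by -0.39. The members furthest up were F2rl3, the thrombin receptor PAR4, at 5.37, 5.80 and 5.48 (0.43), and Ptger3, a prostaglandin E2 receptor, at 5.26, 5.52 and 5.38 (0.26). Against PBS the CTC41.5G-EVs array had a median of 0.21 over the same 29 genes.

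Platelet signalling genes were lower in 29 of 36 past the floor (median -0.13), and in 18 of 36 after cyclic loess (median -0.01). Pla2g4a, the phospholipase that frees arachidonic acid for thromboxane, stood at 7.16, 6.70 and 7.27 (-0.45), the widest difference of the list. The CTC41-EVs array was thus below the other pair, which lay close together. Rab GTPases, which steer vesicle traffic, were lower in 24 of 27 with a median of -0.22, and in 24 of 27 after cyclic loess with -0.13. Rab21, an endosomal member, stood at 5.78, 4.94 and 5.08 (-0.84), under the floor on both EV arrays, and Rab2a, of the Golgi, at 7.79, 7.20 and 7.48 (-0.59). Rab27b, which docks platelet granules, stood at 7.26, 6.98 and 7.44 (-0.28).

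Alpha granule genes stood on both sides of PBS. This store holds chemokines, clotting proteins and growth factors. Of 38 listed, 27 passed the floor, 10 higher and 17 lower, with a median of -0.07 that became 0.07 after cyclic loess and 0.085 after quantile normalization. The 1 listed gene past 1.5-fold was Ctla2a, the protease inhibitor gene given above, and its storage in these granules was not examined. The brightest stood higher on both EV arrays, with Pf4, platelet factor 4, at 12.35, 12.78 and 13.04 (0.43), and Ppbp, by 0.32. Tgfb1, the growth factor TGF-beta, was also higher, at 7.70, 8.0 and 8.30 (0.29). Lower members were Ccl5, a chemokine that T cells also make, at 6.44, 5.87 and 6.37 (-0.57), Serping1, the C1 inhibitor, at 6.37, 5.90 and 6.0 (-0.48), Vwf, von Willebrand factor, at 8.24, 7.97 and 8.63 (-0.27), and F13a1, a chain of factor XIII, at 8.60, 8.40 and 9.05 (-0.20). For Vwf and F13a1 the CTC41-EVs array was the lowest and CTC41.5G-EVs the highest. Thbs1, thrombospondin, differed by -0.07.

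Cytoskeletal genes held members on both sides as well. Of 60 listed, 51 passed the floor, 36 lower and 15 higher, with a median of -0.12 that became 0.01 after cyclic loess, with 24 of 51 then lower, and 0.0066 after quantile normalization. Capza1, which caps actin filaments, stood at 7.57, 7.01 and 7.66 (-0.56). Actr3 and Arpc2, subunits of the complex that branches actin, stood at 8.23, 7.70 and 8.35 (-0.53) and at 9.32, 8.91 and 9.39 (-0.41). For each of these the CTC41-EVs array was low and the other pair lay within 0.12. Actb, the actin of the filaments, stood at 10.23, 10.65 and 10.81 (0.42), and Pfn1, profilin, at 8.0, 8.32 and 8.49 (0.32). For both PBS was the low array. Tubb1, the tubulin of the platelet marginal band, differed by -0.13.

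**Figure D3:**
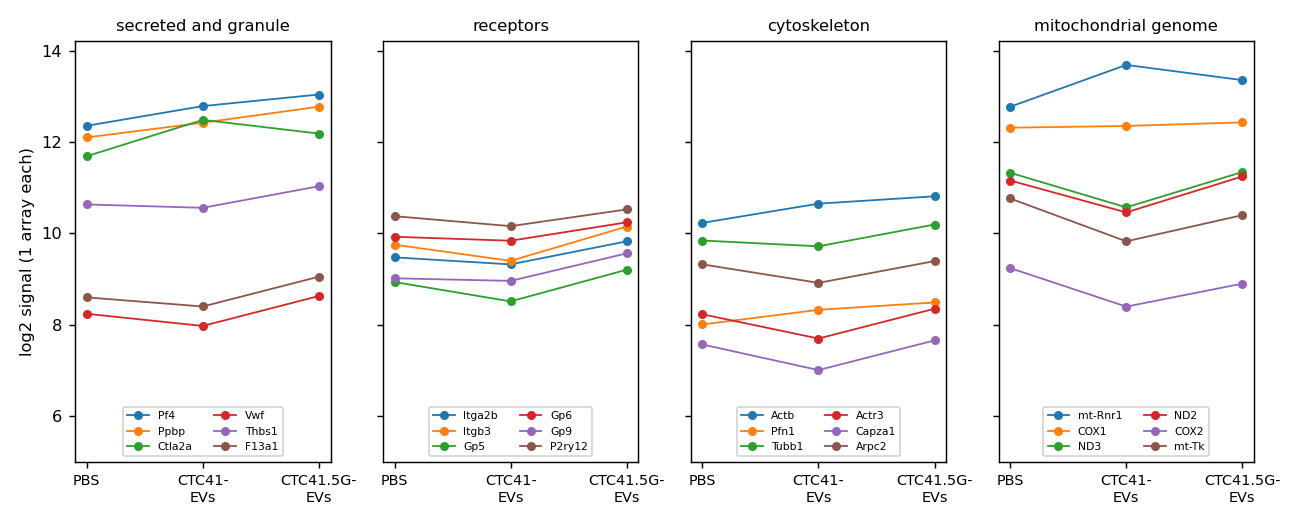
Log2 signal (vertical) on the PBS, CTC41-EVs and CTC41.5G-EVs platelet arrays, 1 array each, for genes of 4 groups; thin lines join the points of a gene and carry no order in time. Pf4, Ppbp, Actb and mt-Rnr1 are lowest with PBS, while Gp5, Itgb3, Capza1, ND3 and ND2 are lowest with CTC41-EVs.

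Noncoding classes differed among themselves. The 5384 protein-coding genes past the floor had a median of -0.06, with 7 at least 1.5-fold higher and 63 at least 1.5-fold lower, and 1571 pseudogenes a median of -0.14, with 7 and 84. Genes of 5S ribosomal RNA were higher in 46 of 58, with a median of 0.14 and of 0.27 after cyclic loess, though 24 of them share 1 set of values, and over the 27 distinct sets 17 were higher with a median of 0.09. Small nucleolar RNA genes annotated as such had a median of 0.07 (135 genes) and long noncoding RNAs of 0.04 (267 genes). Small nuclear RNA genes had a median of -0.09 (185 genes), under that of the protein-coding genes. By sign, though, 107 were lower and 78 higher, a smaller lower share than in protein-coding genes, with 3368 lower and 2016 higher. Snord42a, a guide for ribosomal RNA methylation, stood at 5.53, 4.75 and 5.2 (-0.79, under the floor with CTC41-EVs), and Snord55 at 5.36, 5.99 and 5.86 (0.64). Thus the CTC41-EVs array was the lowest for the former and the highest for the latter.

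**Figure D4:**
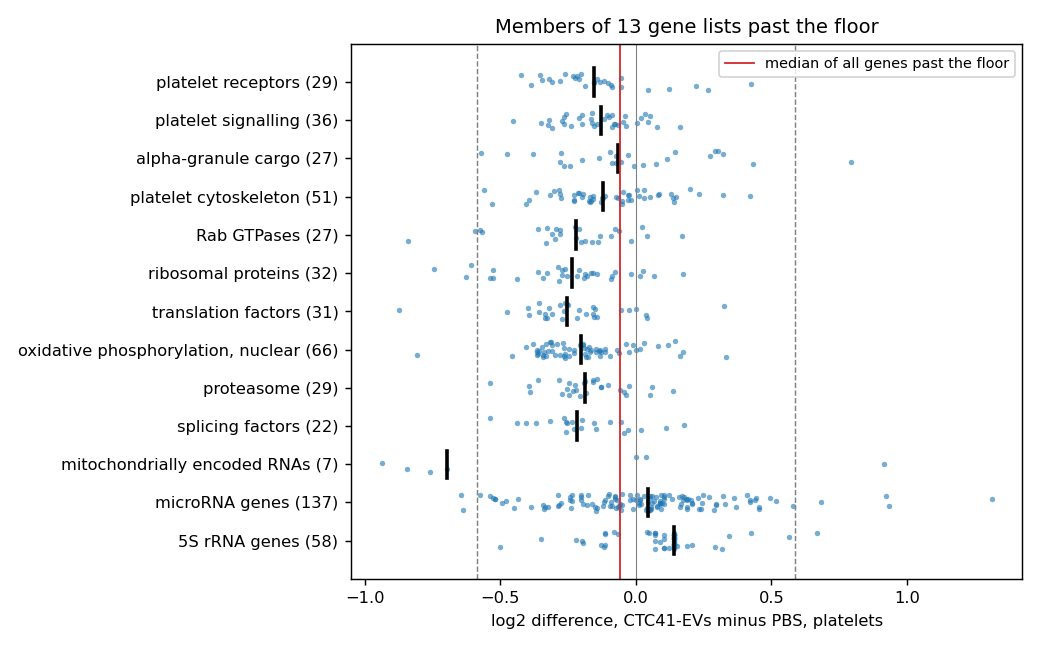
Log2 difference between the CTC41-EVs and PBS platelet arrays (horizontal) for members past the floor of 13 gene lists, 1 point per gene; black ticks give each list's median, the red line the median of all genes past the floor (-0.06) and dashed lines 1.5-fold. Ribosomal, translation, respiratory, proteasome and splicing lists have medians from -0.25 to -0.19, and the 7 mitochondrially encoded RNAs lie from -0.94 to 0.92.

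Interferon, inflammatory and leukocyte genes lay mostly within 1.5-fold. Of 14 interferon response genes past the floor 11 were lower (median -0.17, and -0.12 after cyclic loess), and Rsad2, an antiviral enzyme, was the 1 past 1.5-fold, at 8.43 with PBS, 7.69 with CTC41-EVs and 7.58 with CTC41.5G-EVs (-0.74). Inflammatory cytokine genes were higher in 8 of 10, with a median of 0.08, or 0.12 after cyclic loess, and none past 1.5-fold. B2m, beta-2-microglobulin, which pairs with MHC class I heavy chains, stood at 12.34, 12.85 and 12.89 (0.51), with PBS the low array. Neutrophil genes were higher in 6 of 10 past the floor (median 0.15, and 0.19 after cyclic loess), against 38.7% of all genes. The summed signal of the 8 neutrophil markers was 8.36 with PBS, 8.41 with CTC41-EVs and 8.59 with CTC41.5G-EVs. Of these markers 5 were higher and 3 lower with CTC41-EVs. Among the 3 past the floor S100a8 and S100a9 differed by -0.06 and -0.16 and Camp by 0.23. Ngp, under the floor in its mean, differed by 0.69. Red cell markers, Alas2, Slc4a1 and Epb42, were lower by 0.07 to 0.40, and their summed signal was 10.31, 10.18 and 10.30. In the longer erythroid list 8 of 12 genes past the floor were lower and 4 higher, or 6 and 6 after cyclic loess, with Bpgm, a red cell enzyme of glycolysis, furthest up at 5.98, 6.32 and 5.81 (0.34). Markers of endothelium and stroma summed to 8.69, 8.35 and 8.26, with Dcn, the matrix protein decorin and the brightest of them, at 8.14, 7.62 and 7.50 (-0.51). Of the others, Cdh5 was higher by 0.18, and Col1a1 and Kdr, the latter under the floor, were lower by 0.08 and 0.20. In the longer list 10 of 12 genes past the floor were lower and 2 higher, with a median of -0.10. The part of such cells in the differences of other genes was not tested. Further members past 1.5-fold were found among antioxidant enzymes, with Glrx5, a factor of iron-sulfur cluster assembly, at 8.57, 7.79 and 8.30 (-0.77), and tetraspanins and ESCRT, with Vps37b at 6.86, 6.26 and 7.17 (-0.60).

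The same treatment pair in progenitors, measured on separate arrays, stood the other way for the ribosomal group. In progenitors 328 of 10609 genes (3.09%) were at least 1.5-fold higher with CTC41-EVs and 8 (0.0754%) at least 1.5-fold lower. Over the 6262 genes past the floor in both cell types the differences correlated at -0.325 (Pearson) and -0.272 (Spearman), a description across genes, which are not independent, on 4 arrays that share a platform. Of these genes, 46 were at least 1.5-fold lower in platelets and at least 1.5-fold higher in progenitors, 0 the reverse, 0 lower in both and 1 higher in both. With so few genes lower in progenitors, counts that need that direction were bound to be small. The overlap to be expected from the counts in each cell type was not computed. Several of the 46 were ribosomal protein genes or pseudogenes, whose probes may not tell them apart. Rpl4 stood at 6.39 with PBS and 7.16 with CTC41-EVs in progenitors (0.77, against -0.74 in platelets), Rpl8 at 6.87 and 7.68 (0.82, against -0.63) and Rps3a1 at 6.29 and 6.95 (0.66, against -0.61). Over the 30 ribosomal protein genes past both floors the median was -0.26 in platelets and 0.27 in progenitors, over 154 ribosomal protein pseudogenes -0.33 and 0.54, and over 20 translation factors -0.25 and 0.19. Over all 6262 genes these medians were -0.04 and 0.05. Astx1a also lay apart, by -1.28 in platelets and 0.78 in progenitors. The difference between the cell types has no test, and signal went with the difference in both, with a correlation across these genes of -0.270 in platelets and 0.372 in progenitors.

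**Figure D5:**
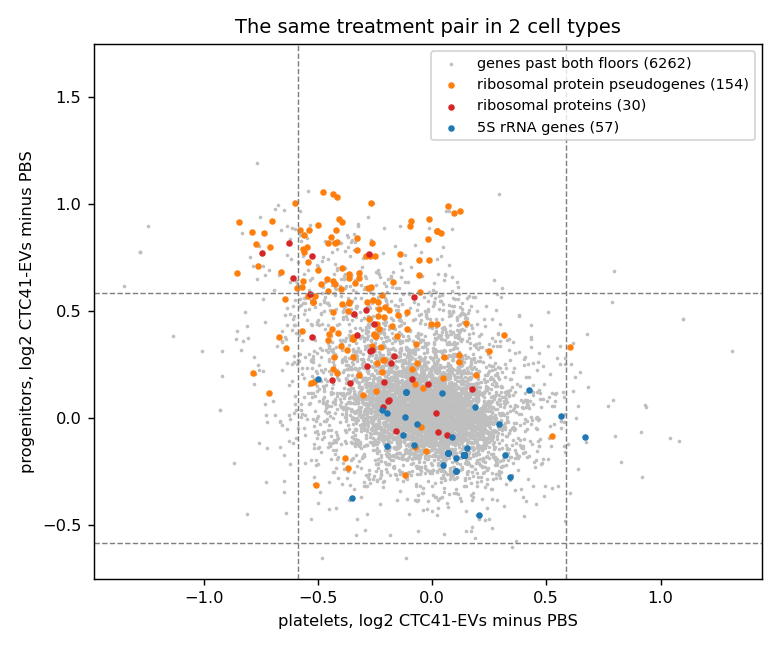
Log2 difference between CTC41-EVs and PBS in progenitors (vertical) against that in platelets (horizontal) for the 6262 genes past the floor in both, 1 point per gene, with dashed lines at 1.5-fold. Most ribosomal protein genes (red) and their pseudogenes (orange) lie in the upper left, and the 5S rRNA genes (blue) have medians of 0.14 in platelets and -0.17 in progenitors. Of the 5S rRNA genes past the platelet floor, 24 share 1 set of values.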

How the data were processed

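The deposited series value table holds log2 signals of 6 arrays, made by the authors. The submitters' processing notes name Expression Console 1.4.1.46 and the series description MAS5.0, so the scaling and centring of the arrays remain unknown. No genome build is named in these sources. The labels' protocols name 3 ng of RNA in 1 place and 5 ng in another, and the mirVana and RNeasy kits. Signals were used as deposited, and 1 array per group limits the precision.

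The arrays hold 72688 probes, and 1 symbol was listed for 30604, several for 2146 and none for 39938. Only the first kind was used, and Entrez identifiers tied 22818 of them to RefSeq (GRCm38.p6), with 827 symbols brought up to date. Of those with a comparable chromosome, 92 of 22630 (0.407%) were left out because their identifier names another chromosome than RefSeq, a step chosen after seeing the data. The probe with the highest platelet mean stood for a gene. Of 8063 genes past the floor, 181 shared values with another gene. A difference is a subtraction of 2 arrays, counted at 1.5-fold. Counts were checked on simulated data.

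The comparison, lists and thresholds were chosen with earlier results of these data known. Named by rule were the 15 genes furthest up and down, up to 4 members of each list with the largest difference and the markers; other members were named after their values were seen. Alternatives covered scaling, floor, probe choice, gene class and fold. Python 3.11.15, pandas 2.3.3, R 4.3.3 and limma 3.58.1 were used.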

Additional observations from a re-analysis of the deposited data

Results flagged for a closer look

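Of the gene lists, 9 stood on opposite sides of 0 in platelets and progenitors between CTC41-EVs and PBS, with at least 75% of members past both floors on each side. None of these differences between cell types was tested, since each cell type has 1 array per treatment. Over all 6262 genes past both floors the medians also lay on opposite sides, at -0.04 in platelets and 0.05 in progenitors. In progenitors 4041 of them were higher and 2219 lower, and the median of the Rab GTPases lay under that of all genes. The median differences in platelets and progenitors were -0.26 and 0.27 for ribosomal proteins (30 genes), -0.33 and 0.54 for ribosomal protein pseudogenes (154), -0.25 and 0.19 for translation factors (20), -0.25 and 0.12 for oxidative phosphorylation (50), -0.17 and 0.09 for the proteasome (20), -0.20 and 0.16 for splicing factors (19), -0.20 and 0.08 for endoplasmic reticulum stress and disulfide isomerases (11) and -0.14 and 0.02 for Rab GTPases (14). The 5S rRNA genes were the list with the reverse order, at 0.14 and -0.17 (57). Of the 58 past the platelet floor, though, 24 share 1 set of values. Over the 27 distinct sets 17 were higher in platelets, a share under 75%, with a median of 0.09.

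Of the 6262 genes past both floors, 46 were at least 1.5-fold lower in platelets and at least 1.5-fold higher in progenitors. Among the genes named by the rule, which picks by platelet difference, 10 were so, again without a test. These were Astx1a (-1.28 and 0.78), Astx6 (-1.24 and 0.90), Gm22155 (-1.35 and 0.62), Rpl4 (-0.74 and 0.77), Rpl8 (-0.63 and 0.82), Rps3a1 (-0.61 and 0.66), Snord42a (-0.79 and 0.71), Rpl30-ps1 (-0.85 and 0.68), Rpl30-ps8 (-0.79 and 0.87) and Rpl5-ps1 (-0.85 and 0.92).

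Probes that name no gene or several genes were not used in the comparison. Of 5216 such probes past the floor, 84 (1.61%) were at least 1.5-fold higher with CTC41-EVs than with PBS and 295 (5.66%) at least 1.5-fold lower. Both shares lay above those of the genes used, at 0.434% higher and 2.37% lower.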

How the results depend on the processing

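No paired analysis was possible because each group was 1 array. For the same reason no array could be left out. The 35 genes higher and 191 lower became 55 and 104 after both quantile normalization and cyclic loess, 10 and 125 with the floor at the 90th percentile, 603 and 518 with no floor, 7 and 63 over protein-coding genes and 5 and 10 at 2-fold. The floor at the 50th percentile gave 130 higher, and requiring the floor on both arrays 22 higher. The median of ribosomal proteins was -0.11 after quantile normalization. The alpha granule median turned to 0.085 after quantile normalization, 0.0693 after cyclic loess and 0.0087 with no floor, and the cytoskeleton median to 0.0066 after quantile normalization and 0.0107 after cyclic loess. The medians of platelet receptors, translation factors, oxidative phosphorylation and proteasome genes kept their sign under every alternative tried. Monocyte genes turned from -0.08 to 0.0429 after quantile normalization and 0.0166 after cyclic loess, and mt-Rnr1 to -0.13 after quantile normalization, and the cause was not tested. Keeping probes on another chromosome, added after seeing the data, left the counts within 1.5 times. Centring on array medians gave 8.36% higher and 91.6% lower among genes past 1.5-fold and shifted all genes past the floor by -0.05.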
